A study of Mus musculus with 29 samples.

Results

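The 44 mouse genes whose symbol consists of Col, a number, the letter a and a second number were followed in the E17.5 cortex of embryos in which 2 subunits of the BAF chromatin remodelling complexes were deleted. These symbols name the α chains of the collagens, and all 44 were listed in both RNA tables, which hold 38355 gene IDs for the untreated and 48709 for the treated experiment. Of the 44 genes, 16 were taken as collagens that meningeal fibroblasts or blood vessels are known to make, and 28 formed the remainder.

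The study deleted BAF155 (Smarcc1) and BAF170 (Smarcc2), the core subunits without which the BAF complex falls apart, with an hGFAP-Cre transgene, which is active in radial glial progenitors of the pallium and reaches the medial pallium before the dorsal and lateral pallium. All embryos were C57BL/6J at E17.5. RNA was sequenced from 4 untreated control pallia (C) and 3 untreated pallia labelled as BAF dcKO_hGFAP-Cre (M), and H3K27me3 was profiled in 4 control (C) and 4 BAF dcKO_hGFAP-Cre (K) pallia. For these samples the genotype label reads BAF dcKO_hGFAP-Cre throughout, controls included, so the groups follow the letters of the sample titles. In the study's methods, controls are littermates heterozygous for both floxed alleles that also carry Cre. A second RNA experiment comprised 4 wild-type (WT) cortices with vehicle, 4 BAF dcKO_hGFAP-Cre cortices with vehicle and 4 BAF dcKO_hGFAP-Cre cortices with a Wnt inhibitor. According to the methods, the inhibitor was ICG-001, which blocks the binding of β-catenin to its coactivator CBP, the vehicle was DMSO, and both were injected daily into the pregnant dams. In every dcKO group only cells descended from Cre-expressing progenitors lose the floxed alleles, and meningeal, vascular and microglial cells in the tissue are not expected to. No measurement in the H3K27me3 libraries checks the genotype of the K pallia. The sources used here do not say whether each sample is 1 embryo or a pool, so p-values measure the spread between these samples.

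The RNA libraries held 11946658 to 28391046 counts (untreated) and 12514443 to 26600594 counts (treated). Levels are given as CPM, read counts scaled to a common library size after TMM normalization. The targeted gene was checked first. Smarcc1 stood at 247, 264, 269 and 248 CPM in the C pallia and at 246, 128 and 135 CPM in the M pallia 2, 3 and 4. In the treated cortices it stood at 245, 266, 299 and 256 CPM in WT vehicle, at 136, 243, 133 and 138 CPM in dcKO vehicle, and at 214, 252, 139.8 and 173 CPM in dcKO inhibitor libraries 1 to 4. Smarcc2 was 654, 703, 714 and 656 CPM in C, 669.9, 399.5 and 398 CPM in M, 834, 716, 664 and 711 CPM in WT vehicle, 439, 692, 425 and 435 CPM in dcKO vehicle and 644, 695, 416 and 586 CPM in dcKO inhibitor. The libraries labelled M 2, dcKO vehicle 2 and dcKO inhibitor 2 therefore held both genes at control level and go against their labels, and the library labelled dcKO inhibitor 1 lay near it. Calls that rest on these libraries are given with and without them. Inhibitor 4, at 173 CPM for Smarcc1 and 586 CPM for Smarcc2, lay between the controls and the lower dcKO libraries. It was left out only where libraries were left out 1 at a time. The 2 RNA experiments are also not independent. Across 15220 genes, the deviations of a library from its group mean correlated between same-numbered C and WT vehicle libraries at 0.204 to 0.546 (4 pairs) and between same-numbered M and dcKO vehicle libraries at 0.592 to 0.789 (3 pairs), against -0.351 to 0.141 and -0.673 to 0.217 for pairs with different numbers. These are correlations across genes within libraries, and genes are not independent replicates. The treated experiment is therefore not used as a repeat of the untreated one.

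Collagens are extracellular proteins in which 3 α chains wind into a triple helix. Fibrillar collagens such as types I and III form the fibres of the meninges, network-forming type IV is the scaffold of the basement membranes that line brain vessels and the pial surface, and the fibril-associated types decorate the surface of fibres. In the embryonic cortex the endfeet of radial glia anchor to the pial basement membrane, and collagen III is a ligand of the receptor GPR56 there. H3K27me3, the trimethylation of lysine 27 of histone H3, is laid down by Polycomb repressive complex 2, marks silent developmental genes and favours CpG-rich promoters.

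Because H3K27me3 and CpG content are both read at the promoters below, the 250 bases upstream of the RefSeq start are shown for 6 genes, 5′ to 3′ on the strand of the gene, with every CpG in capitals. The sequences are from RefSeq (GRCm38.p6), where 35 of the 44 members had an entry. Col4a1 and Col4a2 are shown because the 2 genes start head to head and carried a shared H3K27me3 peak. The Col4a1 stretch is chr8:11312827-11313076 on the minus strand with 31 CpGs, and that of Col4a2 is chr8:11312555-11312804 on the plus strand with 26 CpGs. The start sites, 11312826 and 11312805, are so placed that the 5′ ends of the transcripts share 22 bases. The library kit does not mark strand, so RNA reads within these bases cannot be assigned to either gene.
Col4a1: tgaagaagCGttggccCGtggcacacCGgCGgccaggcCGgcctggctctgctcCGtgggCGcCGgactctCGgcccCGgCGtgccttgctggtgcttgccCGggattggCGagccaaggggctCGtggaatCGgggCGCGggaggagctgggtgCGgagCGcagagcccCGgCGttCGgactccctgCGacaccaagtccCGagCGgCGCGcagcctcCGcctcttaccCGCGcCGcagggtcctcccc
Col4a2: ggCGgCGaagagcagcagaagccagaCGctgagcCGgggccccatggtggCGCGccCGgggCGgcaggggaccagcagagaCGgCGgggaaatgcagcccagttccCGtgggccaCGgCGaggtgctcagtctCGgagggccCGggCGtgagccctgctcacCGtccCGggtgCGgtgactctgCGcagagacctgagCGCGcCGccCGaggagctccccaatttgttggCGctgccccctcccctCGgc
Col8a2 and Col27a1 had peaks in nearly all H3K27me3 libraries and are followed below under the Wnt inhibitor and the deletion. With all libraries, edgeR called neither gene in any comparison. The stretches are chr4:126286544-126286793 with 24 CpGs and chr4:63215162-63215411 with 15 CpGs, both on the plus strand.
Col8a2: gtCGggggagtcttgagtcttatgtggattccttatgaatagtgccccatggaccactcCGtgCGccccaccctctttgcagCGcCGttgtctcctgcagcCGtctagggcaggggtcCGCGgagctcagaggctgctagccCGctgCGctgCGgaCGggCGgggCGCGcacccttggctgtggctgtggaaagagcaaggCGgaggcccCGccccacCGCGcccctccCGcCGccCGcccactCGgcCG
Col27a1: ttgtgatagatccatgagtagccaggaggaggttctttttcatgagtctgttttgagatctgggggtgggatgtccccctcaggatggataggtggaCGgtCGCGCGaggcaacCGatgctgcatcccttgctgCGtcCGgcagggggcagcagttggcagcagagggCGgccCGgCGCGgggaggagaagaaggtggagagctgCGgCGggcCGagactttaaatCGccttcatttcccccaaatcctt
Col1a2 and Col3a1 are shown because they followed the same pattern across RNA libraries but differed in the mark. The stretches are chr6:4505368-4505617 with 11 CpGs and chr1:45311288-45311537 with 0 CpGs, both on the plus strand. The RefSeq starts of Col27a1 and Col1a2 lie 1408 and 804 bases inside the GENCODE genes whose positions are given below, so these stretches are upstream of the RefSeq start only.
Col1a2: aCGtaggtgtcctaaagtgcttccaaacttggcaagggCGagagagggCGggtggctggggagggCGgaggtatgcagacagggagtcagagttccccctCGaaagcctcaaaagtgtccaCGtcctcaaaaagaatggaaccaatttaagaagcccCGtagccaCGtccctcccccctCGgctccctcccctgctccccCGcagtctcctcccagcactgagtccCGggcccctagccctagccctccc
Col3a1: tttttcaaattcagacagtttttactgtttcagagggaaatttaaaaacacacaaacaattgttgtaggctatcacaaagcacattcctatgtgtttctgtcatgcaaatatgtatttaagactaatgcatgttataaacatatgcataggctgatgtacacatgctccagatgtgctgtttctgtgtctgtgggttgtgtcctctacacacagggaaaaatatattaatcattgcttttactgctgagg

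The first question was which collagens the control cortex makes. Per kilobase of exon, in CPM per kb, the chains of the vascular and pial basement membrane ranked first in the 4 C pallia, with Col4a1 at 26.8 ± 3.18 (SD, n = 4) and Col4a2 at 19.9 ± 2.47 (SD, n = 4). Col9a3, a chain of the fibril-associated collagen IX, followed at 7.89 ± 1.09 CPM per kb. Then came Col11a1, which builds thin fibrils, at 3.33 ± 0.192, Col15a1, a collagen of basement membrane zones, at 3.01 ± 0.155, Col5a2, which regulates fibril diameter, at 2.85 ± 0.311, and Col18a1, the precursor of endostatin, at 2.604 ± 0.522. From Col11a1 to Col18a1 the ranges of 1 SD around neighbouring means overlapped, whereas Col4a1, Col4a2 and Col9a3 stood apart from each other and from Col11a1. Col1a1 (0.815 ± 0.762), Col1a2 (1.06 ± 0.791) and Col3a1 (1.58 ± 1.27) lay in the middle of the order with SDs close to their means. The lowest were Col17a1, a hemidesmosome collagen of skin, at 0.0358 ± 0.0201, and Col10a1, the collagen of hypertrophic cartilage, at 0.0291 ± 0.0177. The chondrocyte markers, summed, stayed between 1.343 and 3.716 CPM in the untreated pallia. Summed over all 44 genes, collagen transcripts made up 612 to 809 CPM in C, 545 to 645 CPM in M, 562 to 901 CPM in WT vehicle, 642 to 733 CPM in dcKO vehicle and 657 to 827 CPM in dcKO inhibitor.

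**Figure D1:**
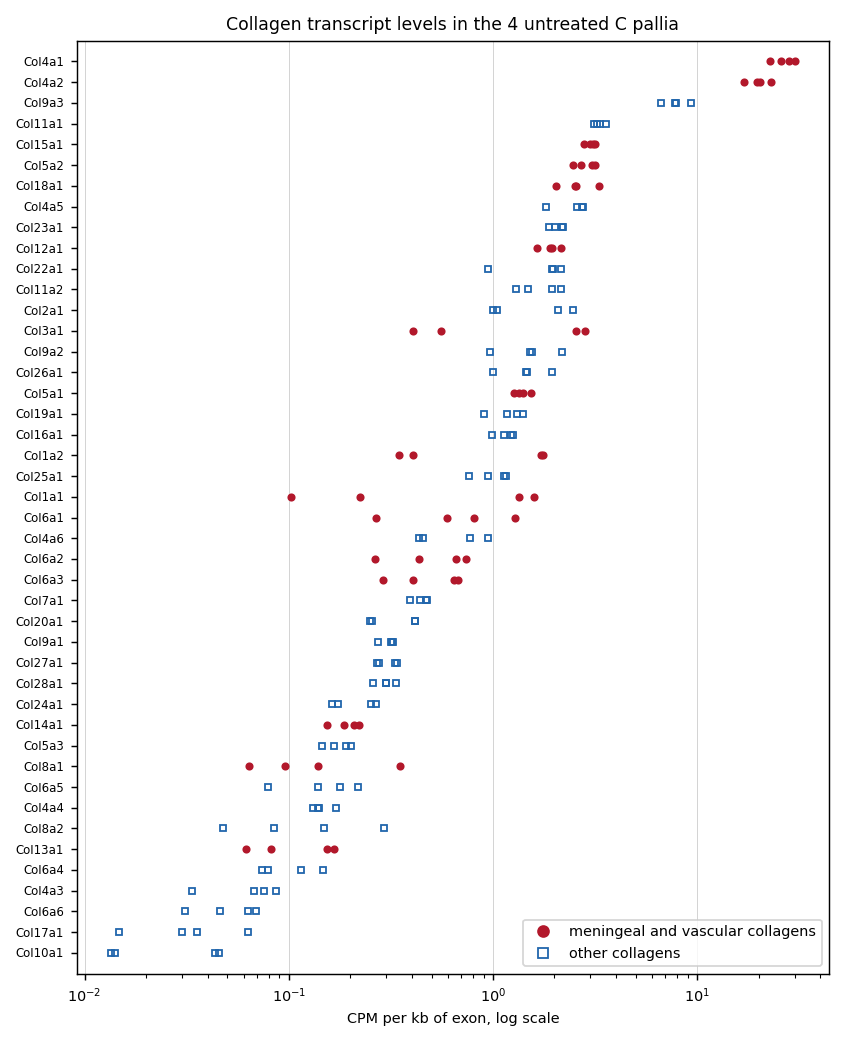
Level of each collagen gene in the 4 untreated C pallia, in CPM per kb of exon on a log axis, ordered by the mean. Points are libraries; Col4a1 and Col4a2 lie highest, at means of 26.8 and 19.9, and the points of Col1a1, Col1a2 and Col3a1 lie far apart.

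The meningeal fibrillar collagens split the control libraries. Gene positions are given on GRCm38 (GENCODE M21). Col1a1 (chr11:94936224-94953042), the α1 chain of collagen I, stood at 0.672, 10.5, 1.46 and 8.81 CPM in C and 1.18, 4.17 and 2.504 CPM in M, each in library order. In the treated cortices it stood at 1.38, 15.97, 1.08 and 14.4 CPM in WT vehicle, 4.28, 1.92, 4.75 and 2.704 CPM in dcKO vehicle and 7.77, 2.87, 3.499 and 12.5 CPM in dcKO inhibitor. Control libraries 2 and 4 of both experiments and inhibitor library 4 were high, and control libraries 1 and 3 were low, with M 3 and 4 and dcKO vehicle 1, 3 and 4 between the 2 sets and M 2 and dcKO vehicle 2 near the low set. Col1a2 (chr6:4504814-4541544), the partner chain in collagen I, stood at 4.33, 21.4, 5.02 and 21.96 CPM in C and 4.197, 8.37 and 7.43 CPM in M. The treated libraries held 4.86, 20.9, 5.21 and 24.3 CPM in WT vehicle, 8.93, 4.54, 8.72 and 8.02 CPM in dcKO vehicle and 12.4, 7.29, 7.92 and 20.8 CPM in dcKO inhibitor. Col3a1 (chr1:45311538-45349706), the single chain of collagen III, stood at 3.99, 27.6, 5.48 and 25.03 CPM in C and 3.78, 11.2 and 9.13 CPM in M. The second experiment gave 3.48, 26.3, 5.29 and 24.6 CPM in WT vehicle, 8.298, 3.296, 9.24 and 9.42 CPM in dcKO vehicle and 10.4, 5.91, 5.88 and 18.4 CPM in dcKO inhibitor. The same libraries were high for all 3 genes. Of the 12 meningeal fibroblast markers, Slc6a13 and Aldh1a2, picked after their values were seen, followed the split of the control libraries. How many of the other markers followed it is not given here. Slc6a13, a GABA and taurine transporter, was 0.08403, 2.62, 0.178 and 4.07 CPM in C pallia 1 to 4, 0.358, 2.51, 0 and 4.07 CPM in WT vehicle and 0.718, 0.517, 0.486 and 4.31 CPM in dcKO inhibitor. Aldh1a2, which makes retinoic acid in the meninges, was 0, 1.55, 0.0712 and 1.72 CPM in C and 0, 1.48, 0.0827 and 1.63 CPM in WT vehicle. Both Aldh1a2 and Slc22a6 had no count in C 1 and WT vehicle 1, where a count of 0 allows up to 3. The sum of all 12 meningeal markers moved less, from 49.4 to 65.5 CPM in C, 41.9 to 53.6 CPM in M, 45.7 to 69.8 CPM in WT vehicle, 45.4 to 61.3 CPM in dcKO vehicle and 47.9 to 78.0 CPM in dcKO inhibitor. The part of these markers in the collagen values was not tested. In such bulk tissue, fewer cells of a type and less RNA per cell cannot be told apart.

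None of these 3 genes passed the test in any comparison. For M against C the log2 fold changes (± SE) were -0.94 ± 0.96 for Col1a1, -0.94 ± 0.68 for Col1a2 and -0.90 ± 0.78 for Col3a1, with adjusted p from 0.554 to 0.6795 by edgeR's quasi-likelihood test. For dcKO vehicle against WT vehicle they were -1.29 ± 0.73, -0.89 ± 0.50 and -0.996 ± 0.59. The groups overlapped in both comparisons.

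**Figure D2:**
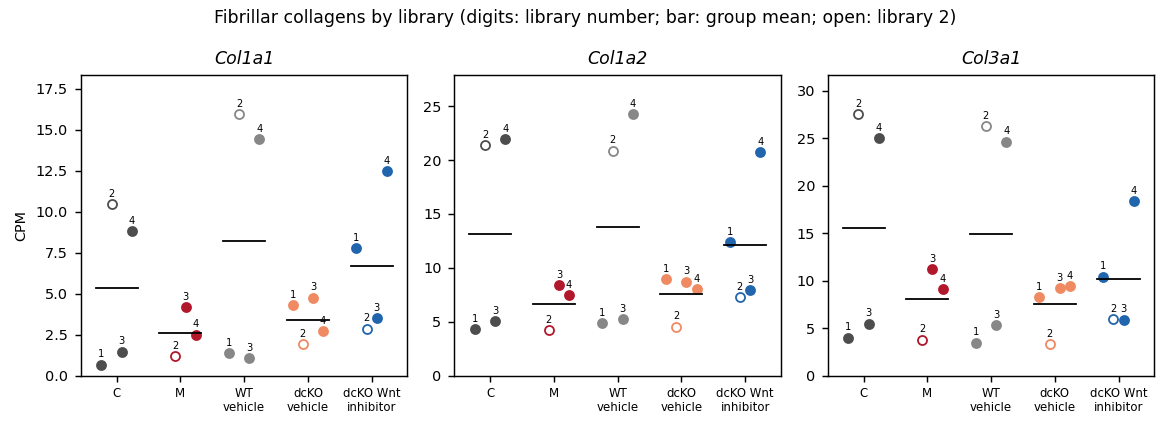
Col1a1, Col1a2 and Col3a1 in CPM (linear axis) in each of the 19 RNA libraries, arranged by group; each point is 1 library and its number is the replicate number, bars are group means and open symbols are library 2. In both control groups libraries 2 and 4 lie high and 1 and 3 lie low, and M 2 and dcKO vehicle 2 lie near the low controls.

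Whether loss of BAF complexes changed collagen expression was asked first in the untreated pallia. The cartilage collagen Col2a1 was higher in each M pallium than in any C pallium. Col5a1 and the fibril-associated Col9a1, Col12a1 and Col16a1 were lower in each, and for the other collagens tested the groups overlapped. The share of all genes whose groups do not overlap was not computed, so such separation is given as a description only. In M against C, none of the 41 collagens that passed the filter on low counts reached an adjusted p under 0.05 (edgeR quasi-likelihood test, Benjamini-Hochberg over 15770 genes), where 0.00634% of all genes were called higher and 0% lower. Col8a2, Col10a1 and Col17a1 did not pass the filter. At an unadjusted p under 0.05, 3 collagens were higher and 8 lower, beside 7.91% and 8.14% of all genes, and DESeq2 with a prior on fold changes called 1 higher (Col2a1) and 2 lower (Col12a1, Col16a1) at an adjusted p under 0.05, beside 1.77% and 2.08% of all genes. At the unadjusted limit of 0.01, 1 was higher and 2 were lower, beside 2.66% and 2.8% of all genes. The median log2 fold change of the collagens was -0.31, against 0.004 for all genes tested, and the fold change was below 0 for 33 of 41 collagens, against 49% of all genes. Without M 2 the median was -0.27, with 31 of 42 below 0 beside 50.1% of all genes. The pooled SD of the collagen median between libraries of a group was 0.154. By library, as log2 distance from the C mean, this median ran from -0.38 to -0.118 in M and from -0.21 to 0.18 in C. The groups thus overlapped. Meningeal and vascular collagens had a median of -0.43 (16 genes) and the others of -0.30 (25 genes). Endothelial markers, summed, were 207, 228, 192 and 209 CPM in C and 167, 191 and 177 CPM in M. Their part in the lower medians was not tested.

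When the library labelled M 2 was left out, 9 of 42 collagens were called. Of these, 3 were higher, Col27a1, Col4a5 and Col23a1, which is 7.14% of the collagens beside 5.57% of all genes, and 6 were lower, Col9a3, Col15a1, Col11a1, Col16a1, Col4a4 and Col12a1, which is 14.3% beside 6.88%. In all, 2 lower genes (Col12a1, Col15a1) belong to the 16 meningeal and vascular collagens, and 3 higher and 4 lower genes to the 26 others tested. The share of higher collagens is near the background, and that of lower collagens rests on 6 genes and was not tested against it.

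In the second experiment Col2a1 was higher and Col12a1 lower in every dcKO vehicle library than in any WT vehicle library. Col9a3, Col15a1 and Col4a4 were low in all dcKO vehicle libraries but the one labelled 2. The share of all genes separated in these ways was not computed, so this too is a description only. Still, dcKO vehicle against WT vehicle called none of 42 collagens at an adjusted p under 0.05 by edgeR, beside 0.00611% of 16372 genes called higher and 0% lower. With p unadjusted and under 0.05, 3 were higher and 7 lower, beside 4.14% and 5.33% of all genes, and at the limit of 0.01, 2 were higher and 0 lower, beside 1.56% and 1.29%. These counts varied with single libraries. Without WT vehicle 3, 14 were lower at the limit of 0.05, beside 7% of all genes, and 7 at that of 0.01, beside 2.02%. Without dcKO vehicle 3 or 4, 3 were lower at the limit of 0.05, beside 3.04% and 2.72% of all genes. Without WT vehicle 2 or 4, 4 were lower, beside 3.72% and 3.17%. DESeq2 with a prior called 1 higher (Col2a1) and 0 lower at an adjusted p under 0.05, beside 0.47% and 0.208% of all genes. The median was -0.34 against -0.0031 for all genes, with 31 of 42 collagens below 0. The meningeal and vascular collagens had a median of -0.48 and the others of -0.24, with a pooled SD of the median between libraries of 0.193. By library, as log2 distance from the WT vehicle mean, the collagen median ran from -0.29 to -0.085 in dcKO vehicle. In WT vehicle it ran from -0.37 to 0.18, a range that holds the whole dcKO vehicle range. Without the library labelled dcKO vehicle 2, 2 collagens were higher (Col27a1, Col2a1), beside 1.34% of all genes, and 4 lower (Col9a3, Col15a1, Col22a1, Col4a4), beside 2.06%.

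With the Wnt inhibitor, Col8a2, Col6a1, Col5a3, Col7a1, Col11a2, Col13a1 and the collagen IX chain Col9a2 were higher in each dcKO library than in any dcKO vehicle library. Col19a1 was lower in each. The share of all genes separated in this way was not computed here either. Between these groups, none of 42 collagens was called by edgeR at an adjusted p under 0.05, beside 0.0428% of all genes called higher and 0.0122% lower. With p unadjusted and under 0.05, 10 collagens were higher and 1 lower, beside 7.85% and 8% of all genes, and at the limit of 0.01, 5 were higher and 0 lower, beside 2.44% and 2.2%. DESeq2 with a prior called 2 higher (Col8a2, Col6a1) and 0 lower at an adjusted p under 0.05, beside 1.03% and 0.99% of all genes. The median was 0.38, with 13 of 42 collagens below 0. It fell to 0.21 without library 2 of both groups and to 0.19 without inhibitor 1 as well. With all libraries it was 0.25 for the meningeal and vascular collagens and 0.38 for the others, with a pooled SD of the median between libraries of 0.160. By library, as log2 distance from the dcKO vehicle mean, the collagen median ran from -0.0145 to 0.36 with inhibitor. In dcKO vehicle it ran from -0.17 to 0.16, so these groups overlapped too. Without the library labelled dcKO vehicle 2, 3 collagens were higher (Col9a3, Col8a2, Col22a1) and 0 lower, beside 0.635% and 0.454% of all genes, and without inhibitor 2 instead, Col8a2 was higher and Col19a1 lower, beside 0.86% and 1.67%. Without both of these libraries, 5 collagens were higher (Col9a3, Col8a2, Col4a4, Col22a1, Col15a1), beside 2.37% of all genes, and Col19a1 was lower, beside 3.72%. Without inhibitor library 1 as well, Col9a3 alone was called, beside 0.303% of all genes called higher and 0.72% lower. This comparison and the preceding one share the 4 dcKO vehicle libraries.

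Against WT vehicle, Col19a1 was lower and Col7a1 higher in every dcKO inhibitor library. As before, the share of all genes so separated was not computed, and this is a description only. Between dcKO inhibitor and WT vehicle, none of 42 collagens was called at an adjusted p under 0.05 by edgeR, beside 0.0611% of all genes called higher and 0.0366% lower. With p unadjusted and under 0.05, 6 were higher and 3 lower, beside 9.53% and 10.2% of all genes, and at the limit of 0.01, 3 were higher and 1 lower, beside 3.01% and 3.71%. DESeq2 with a prior called 3 higher (Col2a1, Col8a2, Col11a2) and 1 lower (Col19a1), beside 2.04% and 2.75% of all genes. With the replicate number added to the edgeR fit as a block, Col19a1 was lower (-1.53 ± 0.32, adjusted p = 0.0495), beside 0.763% of all genes. The median was 0.0206, with 21 of 42 below 0, -0.17 for the meningeal and vascular collagens and 0.12 for the others. Without the library labelled inhibitor 2, Col2a1 and Col8a2 were higher, beside 3.39%, and Col19a1 and Col12a1 lower, beside 5.35% of all genes. Without inhibitor libraries 1 and 2, Col2a1 was higher, beside 1.35%, and Col19a1 and Col12a1 lower, beside 2.57% of all genes. Without WT vehicle 1, Col11a2 was higher (0.91 ± 0.15, adjusted p = 0.0312), beside 0.607% of all genes. The WT vehicle and inhibitor libraries also served in the 2 comparisons before this one.

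Among the fibrillar collagens, Col2a1 (chr15:97975602-98004695), the collagen of cartilage that neuroepithelial cells also transcribe, lay higher in every M and dcKO vehicle library than in the controls. Its values were 9.29, 22.7, 19.3 and 9.67 CPM in C and 27.2, 39.1 and 51.7 CPM in M, and the groups did not overlap. Its treated values were 20.9, 26.3, 17.9 and 15.7 CPM in WT vehicle, 60.1, 39.4, 50.3 and 69.9 CPM in dcKO vehicle and 20.9, 31.9, 59.3 and 77.2 CPM in dcKO inhibitor. All dcKO vehicle libraries lay above all WT vehicle libraries, whereas inhibitor libraries 1 and 2 lay within or just above the WT range and 3 and 4 above it. The log2 fold change was 1.38 ± 0.37, unadjusted p = 0.00744, adjusted p = 0.169 in M against C, and 1.44 ± 0.34, unadjusted p = 0.000776, adjusted p = 0.222 in dcKO vehicle against WT vehicle. Without dcKO vehicle 2 the latter was 1.57 ± 0.35, adjusted p = 0.0268, and without M 2 the former was 1.57 ± 0.40, adjusted p = 0.0627. Against WT vehicle, the inhibitor group differed by 1.23 ± 0.33, adjusted p = 0.101, and by 1.76 ± 0.23, adjusted p = 0.00866 without inhibitor libraries 1 and 2. Of the chondrocyte markers summed above, Acan rose without M 2 (1.05 ± 0.28, adjusted p = 0.0332), against 0.67 ± 0.50, adjusted p = 0.556 with it.

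Col27a1 (chr4:63214004-63334991), a fibrillar collagen of cartilage and developing epithelia, stood at 3.53, 4.43, 4.31 and 3.62 CPM in C and 2.69, 9.24 and 8.16 CPM in M. Across the treated libraries it was 4.76, 4.91, 3.804 and 6.28 CPM in WT vehicle, 10.9, 4.54, 10.6 and 11.6 CPM in dcKO vehicle and 6.22, 7.63, 8.75 and 11.9 CPM in dcKO inhibitor. The library labelled M 2 lay below the C pallia and dcKO vehicle 2 within the WT range, and the other dcKO libraries of these 2 groups lay above every control. In M against C the log2 fold change was 0.79 ± 0.33, adjusted p = 0.296, and 1.13 ± 0.15, adjusted p = 0.000884 without M 2. In dcKO vehicle against WT vehicle it was 0.92 ± 0.28, adjusted p = 0.308, and 1.14 ± 0.21, adjusted p = 0.0123 without dcKO vehicle 2. Between inhibitor and vehicle it was -0.12 ± 0.27, adjusted p = 0.864.

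Col11a1 (chr3:114030540-114220718), the α1 chain of collagen XI, did not reach the rule for named genes, and was chosen after its values were seen. It stood at 40, 41.4, 42.5 and 45.7 CPM in C and 45.1, 30.6 and 30.3 CPM in M. The second experiment gave 41.7, 39.8, 43.2 and 42.7 CPM in WT vehicle, 28.3, 41.1, 30.1 and 30.4 CPM in dcKO vehicle and 32.7, 46.8, 24.8 and 37.7 CPM in dcKO inhibitor. M pallia 3 and 4 and dcKO vehicle libraries 1, 3 and 4 lay below every control. The change in M was -0.28 ± 0.14, adjusted p = 0.359 with all libraries and -0.48 ± 0.0805, adjusted p = 0.00371 without M 2.

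The 3 chains of collagen V, which nucleate and thin collagen I fibrils, were not called in any comparison. Col5a1 was 11.97, 13.1, 10.8 and 11.4 CPM in C and 9.99, 9.43 and 10.6 CPM in M. In the treated groups it was 19.6, 15.6, 8.68 and 16.9 CPM in WT vehicle, 13.1, 13.9, 13.7 and 12.8 CPM in dcKO vehicle and 14.5, 14.3, 11.95 and 14.7 CPM in dcKO inhibitor. Col5a2 was 23.8, 30.2, 25.9 and 29.3 CPM in C and 26.95, 32.8 and 33.6 CPM in M. The treated groups gave 29.4, 28.9, 22.8 and 28.2 CPM in WT vehicle, 31.9, 26.2, 30.9 and 31.6 CPM in dcKO vehicle and 21.7, 29.3, 22.5 and 35.5 CPM in dcKO inhibitor. Col5a3 was 1.302, 1.37, 1.14 and 0.994 CPM in C and 1.01, 0.682 and 0.808 CPM in M. With treatment the values were 2.61, 1.64, 0.414 and 1.51 CPM in WT vehicle, 1.13, 1.16, 1.18 and 1.17 CPM in dcKO vehicle and 1.79, 2.12, 1.26 and 1.44 CPM in dcKO inhibitor. Their log2 fold changes in M against C were -0.24, 0.19 and -0.57. WT vehicle libraries 1 and 3 spanned nearly the whole range of Col5a1 and Col5a3. Of the remaining fibrillar genes, Col11a2 ranged from 8.95 to 32.6 CPM over the 19 libraries and Col24a1 from 0.598 to 3.33 CPM. Col11a2 was 0.69 ± 0.19, unadjusted p = 0.00287, adjusted p = 0.105 in inhibitor against WT vehicle.

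The 6 collagen IV genes lie in 3 head-to-head pairs. Col4a1 (chr8:11198423-11312826) and Col4a2 (chr8:11312805-11449287) encode the trimer of nearly all basement membranes. Col4a1 was 193, 226, 171 and 211 CPM in C and 139, 177 and 167 CPM in M. Treated libraries had 267, 224, 155 and 239.5 CPM in WT vehicle, 202, 166, 177 and 179 CPM in dcKO vehicle and 193, 193, 165 and 174 CPM in dcKO inhibitor. Col4a2 was 135, 152, 112 and 129.5 CPM in C and 91.9, 127 and 111 CPM in M. It was 199.8, 164, 94.4 and 168 CPM in WT vehicle, 148, 116, 134 and 129 CPM in dcKO vehicle and 157, 142, 122 and 132 CPM in dcKO inhibitor after treatment. The 2 genes were high and low in the same libraries, with WT vehicle 1 highest and M 2 lowest for both. In M against C the log2 fold changes were -0.31 ± 0.11, adjusted p = 0.221 for Col4a1 and -0.26 ± 0.13, adjusted p = 0.358 for Col4a2. Pericyte markers, summed, were 274, 281, 247 and 276 CPM in C and 252, 276 and 245 CPM in M.

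Col4a3 (chr1:82586921-82722059) and Col4a4 (chr1:82448423-82586849) form, with Col4a5, the trimer of the glomerular basement membrane and were low in cortex. Col4a3 was 0.336, 0.753, 0.676 and 0.859 CPM in C and 0.672, 0.5302 and 0.202 CPM in M. In the treated groups it was 0.563, 0.461, 0.579 and 0.387 CPM in WT vehicle, 0.1804, 0.312, 0.218 and 0.513 CPM in dcKO vehicle and 0.658, 0.689, 0.486 and 0.638 CPM in dcKO inhibitor. Col4a4 was 1.47, 1.82, 1.39 and 1.49 CPM in C and 1.51, 0.644 and 0.606 CPM in M. The treated groups gave 2.56, 2.92, 3.89 and 3.25 CPM in WT vehicle, 1.53, 4.32, 1.61 and 1.399 CPM in dcKO vehicle and 3.29, 2.41, 2.48 and 3.63 CPM in dcKO inhibitor. M pallia 3 and 4 and dcKO vehicle 1, 3 and 4 lay below all controls of their experiment for Col4a4, and dcKO vehicle 2 lay above them all. Col4a4 fell by 1.29 ± 0.27 (log2, SE) in M against C without M 2 (adjusted p = 0.0107) and by 1.05 ± 0.22 without dcKO vehicle 2 (adjusted p = 0.0211), whereas with those libraries the adjusted p was 0.2402 and 0.713. Between inhibitor and vehicle it was 0.41 ± 0.33, adjusted p = 0.557, and 1.05 ± 0.22, adjusted p = 0.02696 without library 2 of both groups. Col4a3 differed by 1.003 ± 0.33, adjusted p = 0.212 between inhibitor and vehicle.

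Col4a5 (chrX:141475385-141689234) and Col4a6 (chrX:141165403-141474076) lie on the X chromosome and form the trimer found in smooth muscle and some epithelial basement membranes. Col4a5 was 12.3, 18.6, 17.3 and 18.3 CPM in C and 17.3, 29.2 and 26.5 CPM in M. With treatment the values were 12.9, 19.5, 16.2 and 17.9 CPM in WT vehicle, 25.8, 18.1, 25.8 and 25.8 CPM in dcKO vehicle and 9.33, 16.6, 19.4 and 23.2 CPM in dcKO inhibitor. Col4a6 was 3.45, 7.53, 3.63 and 6.15 CPM in C and 3.78, 4.204 and 3.92 CPM in M. Treated libraries had 4.25, 6.09, 4.14 and 6.97 CPM in WT vehicle, 5.19, 5.52, 5.19 and 4.06 CPM in dcKO vehicle and 4.37, 3.96, 3.99 and 5.5 CPM in dcKO inhibitor. Col4a5 was thus highest in M 3, M 4 and dcKO vehicle 1, 3 and 4, and at control level in M 2 and dcKO vehicle 2, whereas Col4a6 overlapped between all groups. Without M 2, Col4a5 rose by 0.75 ± 0.15 (adjusted p = 0.0106), against 0.56 ± 0.20, adjusted p = 0.222 with it. In dcKO vehicle against WT vehicle it was 0.52 ± 0.23, adjusted p = 0.492. Col4a6 was -0.38 ± 0.28, adjusted p = 0.554 in M against C.

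Among the beaded-filament collagens, which form the collagen VI network around fibroblasts and vessels, Col6a1 (chr10:76708792-76726168) stood at 2.61, 5.58, 1.17 and 3.52 CPM in C and 0.4197, 2.39 and 1.898 CPM in M. Its treated values were 3.73, 5.63, 0.992 and 5.695 CPM in WT vehicle, 2.03, 0.356, 2.48 and 1.63 CPM in dcKO vehicle and 5.68, 5.91, 5.49 and 7.49 CPM in dcKO inhibitor. M 2 and dcKO vehicle 2 were the lowest libraries, C 3 and WT vehicle 3 were the lowest of the controls, and all inhibitor libraries lay above all dcKO vehicle libraries. The log2 fold change was 1.92 ± 0.48, unadjusted p = 0.00139, adjusted p = 0.155 between inhibitor and vehicle, and 1.58 ± 0.40, adjusted p = 0.0687 without dcKO vehicle 2. Col6a2 was 3.61, 6.12, 2.21 and 5.47 CPM in C and 2.18, 3.26 and 2.91 CPM in M. It was 5.58, 6.295, 2.398 and 7.67 CPM in WT vehicle, 4.15, 2.09, 3.62 and 3.497 CPM in dcKO vehicle and 4.96, 4.02, 3.16 and 5.86 CPM in dcKO inhibitor after treatment. Col6a3 was 4.87, 8.02, 3.45 and 7.73 CPM in C and 1.76, 5.57 and 3.797 CPM in M. In the treated groups it was 5.12, 8.14, 3.47 and 6.702 CPM in WT vehicle, 5.37, 2.27, 3.79 and 4.85 CPM in dcKO vehicle and 3.59, 3.85, 2.72 and 4.504 CPM in dcKO inhibitor. Both ran with Col6a1 across the untreated libraries, low in M 2 and C 3. Col6a6 was 0.4202, 0.576, 0.285 and 0.633 CPM in C and 0.336, 0.417 and 0.323 CPM in M, and in the treated groups 0.716, 0.358, 0.496 and 0.387 CPM in WT vehicle, 0.406, 0.356, 0.479 and 0.1399 CPM in dcKO vehicle and 0.299, 0.631, 0.486 and 0.319 CPM in dcKO inhibitor. It was not called in any comparison. Col6a4 and Col6a5 ranged from 0.0839 to 2.39 CPM and from 0.747 to 3.04 CPM, and neither was called. In mouse, Col6a4, Col6a5 and Col6a6 are related chains, whose counts rest on the authors' assignment of reads.

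Of the short-chain collagens, Col8a2 (chr4:126286793-126314330), which with Col8a1 builds the lattice below corneal and vascular endothelium, showed the highest fold change of all members under the inhibitor. It was 0.378, 0.665, 0.214 and 1.31 CPM in C and 0.336, 0.189 and 0.242 CPM in M in the untreated pallia. In the treated cortices the gene stood at 0.256, 0.563, 0.248 and 1.55 CPM in WT vehicle, 0.226, 0.401, 0.131 and 0.233 CPM in dcKO vehicle and 6.22, 2.18, 4.47 and 0.797 CPM in dcKO inhibitor. Inhibitor libraries 1 and 3 were highest, inhibitor 2 and WT vehicle 4 followed, and inhibitor 4 lay below WT vehicle 4 and above the other WT libraries. All inhibitor libraries lay above all dcKO vehicle libraries. The log2 fold change between inhibitor and vehicle was 3.74 ± 0.70, unadjusted p = 0.000117, adjusted p = 0.0961, and 4.07 ± 0.82, adjusted p = 0.0381 without dcKO vehicle 2. Against WT vehicle it was 2.24 ± 0.62, unadjusted p = 0.00283, adjusted p = 0.105, and 2.40 ± 0.65, adjusted p = 0.0422 without inhibitor 2. The 12 choroid plexus epithelium markers, summed, were 880.4, 178, 519 and 28.9 CPM in inhibitor libraries 1 to 4, 30.4, 16.9, 30.5 and 36.1 CPM in dcKO vehicle, 13.6, 24.2, 13.7 and 142 CPM in WT vehicle and 14.1, 27.3, 14.3 and 145 CPM in C. Ttr, the transthyretin gene that defines this epithelium, was 803, 147, 448 and 4.03 CPM in the inhibitor libraries, so it made up most of the sum in libraries 1 to 3. Of 11 markers tested, 9 had fold changes above 0 and 2 below 0 in inhibitor against dcKO vehicle. Prlr fell by edgeR without library 2 of both groups (-2.21 ± 0.46, adjusted p = 0.0261). At most 1 of the 12 markers was at 0 in any library. The libraries with the highest sum, inhibitor 1 and 3, were those with the highest Col8a2, and C 4 and WT vehicle 4 were highest among the controls in both. Otx2, a transcription factor of this epithelium, was called in inhibitor against WT vehicle (1.64 ± 0.26, adjusted p = 0.0464). The part of choroid plexus tissue in the Col8a2 values was not tested. With inhibitor libraries 1 and 3 left out, edgeR called no collagen in either inhibitor comparison at an adjusted p under 0.05, and no other gene either, while at an unadjusted p under 0.05 10 collagens were higher and 1 lower against dcKO vehicle, beside 3.29% and 2.66% of all genes, and 3 higher and 1 lower against WT vehicle, beside 4.37% and 3.77%. Of the 2 inhibitor libraries that remained, library 2 held Smarcc1 at control level.

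Col8a1 was 1.09, 0.753, 0.498 and 2.76 CPM in C and 1.09, 0.909 and 1.13 CPM in M. The treated groups gave 0.818, 0.972, 0.827 and 2.13 CPM in WT vehicle, 0.722, 0.579, 1.05 and 1.31 CPM in dcKO vehicle and 1.495, 1.32, 1.46 and 0.957 CPM in dcKO inhibitor. C 4 and WT vehicle 4 were highest, and no comparison called it. Col10a1 stayed at or below 0.142 CPM in every library and did not pass the filter in either experiment.

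**Figure D3:**
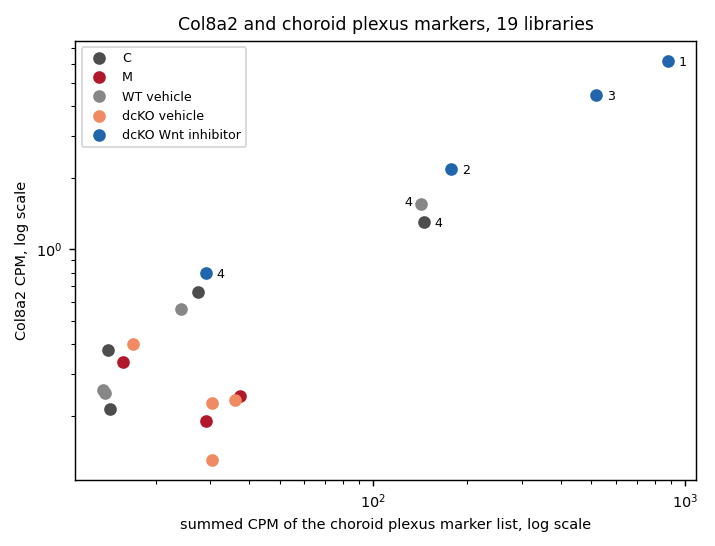
Col8a2 (CPM) against the summed CPM of 12 choroid plexus epithelium markers in the 19 RNA libraries, both axes logarithmic; symbols mark the group. Inhibitor libraries 1 and 3 lie at the upper right, followed by inhibitor 2, and C 4 and WT vehicle 4 lie apart from the other controls. Ttr makes up most of the sum in inhibitor libraries 1 to 3.

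Among the fibril-associated collagens, Col9a3 (chr2:180597790-180622189), the α3 chain of collagen IX, had the largest decrease among the collagens called without M 2 and lies outside the rule for named genes, so it was chosen after its values were seen. It stood at 35.9, 30.2, 29.9 and 25.6 CPM in C and 27.5, 9.47 and 9.82 CPM in M. The second experiment gave 59.4, 33.9, 24.2 and 38.1 CPM in WT vehicle, 12.1, 37.7, 12.1 and 12.3 CPM in dcKO vehicle and 91.7, 48.7, 37.2 and 44.3 CPM in dcKO inhibitor. M 3 and 4 and dcKO vehicle 1, 3 and 4 lay far below all controls, M 2 and dcKO vehicle 2 lay within the control range, and inhibitor 1 was the highest of all. The log2 fold change was -1.01 ± 0.39, adjusted p = 0.272 in M against C and -1.66 ± 0.13, adjusted p = 5.18e-05 without M 2. In dcKO vehicle against WT vehicle it was -1.07 ± 0.41, adjusted p = 0.407, and -1.68 ± 0.33, adjusted p = 0.0157 without dcKO vehicle 2. Between inhibitor and vehicle it was 1.58 ± 0.41, unadjusted p = 0.00187, adjusted p = 0.162, 2.24 ± 0.36, adjusted p = 0.0132 without library 2 of both groups, and 1.75 ± 0.29, adjusted p = 0.0302 without inhibitor 1 as well. Its partner chain Col9a2 was 6.77, 4.83, 2.99 and 4.699 CPM in C and 2.85, 5.15 and 3.96 CPM in M. With treatment the values were 9.67, 6.65, 3.804 and 8.21 CPM in WT vehicle, 7.22, 4.28, 6.97 and 6.01 CPM in dcKO vehicle and 12.4, 10.5, 7.58 and 9.33 CPM in dcKO inhibitor. All inhibitor values of Col9a2 lay above all dcKO vehicle values (0.70 ± 0.25, unadjusted p = 0.0159, adjusted p = 0.234). Col9a1 ranged from 0.828 to 1.72 CPM over the 19 libraries and was not called.

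Col12a1 (chr9:79598991-79718831), which binds collagen I fibrils in dense connective tissue, was 28.8, 29.7, 24.98 and 32.7 CPM in C and 22.2, 11.8 and 19.6 CPM in M. Its treated values were 24.9, 27.9, 25.7 and 28.7 CPM in WT vehicle, 15.5, 20.9, 10.5 and 21.4 CPM in dcKO vehicle and 16.98, 26.6, 8.12 and 14.5 CPM in dcKO inhibitor. Every M value lay below every C value, and every dcKO vehicle value below every WT vehicle value. The log2 fold change was -0.72 ± 0.20, unadjusted p = 0.00578, adjusted p = 0.156 in M against C, -0.89 ± 0.19, adjusted p = 0.01598 without M 2, and -0.65 ± 0.29, unadjusted p = 0.0405, adjusted p = 0.492 in dcKO vehicle against WT vehicle. In inhibitor against WT vehicle it was -0.70 ± 0.29, adjusted p = 0.2099, and -1.03 ± 0.26, adjusted p = 0.0353 without inhibitor 2. Col16a1 (chr4:130047840-130099283), another fibril-associated chain chosen after its values were seen, was 8.28, 8.42, 7.61 and 6.64 CPM in C and 6.13, 4.43 and 4.402 CPM in M. In the treated cortices the gene stood at 14.6, 9.26, 7.03 and 11.8 CPM in WT vehicle, 6.81, 8.28, 6.19 and 4.66 CPM in dcKO vehicle and 16.1, 11.2, 7.53 and 10.1 CPM in dcKO inhibitor. The M values were again all below the C values (-0.66 ± 0.16, adjusted p = 0.143, and -0.81 ± 0.15, adjusted p = 0.00573 without M 2), whereas the treated groups overlapped.

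Col19a1 (chr1:24261890-24587472), a fibril-associated collagen made by cortical and hippocampal interneurons, was 8.07, 8.996, 6.23 and 9.62 CPM in C and 7.14, 8.67 and 6.18 CPM in M. The second experiment gave 6.91, 8.29, 6.202 and 8.25 CPM in WT vehicle, 4.83, 5.52, 6.93 and 5.78 CPM in dcKO vehicle and 0.957, 4.76, 1.51 and 3.75 CPM in dcKO inhibitor. All inhibitor libraries lay below all vehicle libraries of both genotypes. The log2 fold change was -1.06 ± 0.36, unadjusted p = 0.0103, adjusted p = 0.215 against dcKO vehicle and -1.43 ± 0.36, unadjusted p = 0.00141, adjusted p = 0.0855 against WT vehicle. Without inhibitor 2 these were -1.43 ± 0.34, adjusted p = 0.0499 and -1.80 ± 0.35, adjusted p = 0.01201. In M against C it was -0.16 ± 0.18, adjusted p = 0.704.

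Col22a1, a collagen of tissue junctions, was also chosen after its values were seen. It stood at 17.9, 19.8, 18.1 and 8.72 CPM in C and 20.3, 6.25 and 9.61 CPM in M. Its treated values were 19.03, 19.5, 18.4 and 11.4 CPM in WT vehicle, 7.67, 21.2, 6.28 and 9.42 CPM in dcKO vehicle and 18.1, 20.03, 11.95 and 15.98 CPM in dcKO inhibitor. C 4 and WT vehicle 4 lay near the dcKO libraries, and M 2 and dcKO vehicle 2 were the highest of their groups. It fell without dcKO vehicle 2 (-1.13 ± 0.23, adjusted p = 0.0173), against -0.61 ± 0.33, adjusted p = 0.593 with it. Col14a1, which binds fibrils through decorin, was 1.302, 1.55, 1.46 and 1.08 CPM in C and 1.01, 1.86 and 1.58 CPM in M, and in the treated groups 1.74, 0.87, 1.24 and 1.395 CPM in WT vehicle, 1.89, 1.56, 1.48 and 2.01 CPM in dcKO vehicle and 1.26, 1.67, 1.56 and 1.55 CPM in dcKO inhibitor. It was not called in any comparison. Col20a1 ranged from 0.665 to 2.14 CPM.

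Among the multiplexins, which link basement membranes to the stroma around vessels, Col15a1 (chr4:47208161-47313167) was 18.95, 17.8, 19.6 and 20.1 CPM in C and 19.7, 11.8 and 8.64 CPM in M. In the treated cortices the gene stood at 25.5, 18.4, 18.6 and 22.2 CPM in WT vehicle, 11.9, 21.5, 11.4 and 9.98 CPM in dcKO vehicle and 23.1, 20.6, 13.6 and 19.2 CPM in dcKO inhibitor. The same libraries as for Col9a3 were low, M 3 and 4 and dcKO vehicle 1, 3 and 4. It fell in M against C without M 2 (-0.90 ± 0.13, adjusted p = 0.00143), against -0.54 ± 0.24, adjusted p = 0.307 with it, and in dcKO vehicle against WT vehicle without dcKO vehicle 2 (-0.93 ± 0.18, adjusted p = 0.0157), against -0.63 ± 0.23, adjusted p = 0.396 with it. Between inhibitor and vehicle it was 0.48 ± 0.23, adjusted p = 0.333, and 0.74 ± 0.20, adjusted p = 0.0486 without library 2 of both groups. Col18a1 was 14.4, 23.2, 17.9 and 17.6 CPM in C and 11.1, 19.9 and 19.4 CPM in M. Treated libraries had 18.98, 23.1, 13.9 and 20.6 CPM in WT vehicle, 25.1, 14.7, 21 and 23.96 CPM in dcKO vehicle and 21.2, 17.7, 17.4 and 19.7 CPM in dcKO inhibitor. It was lowest in M 2 and WT vehicle 3 and was not called in any comparison.

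**Figure D4:**
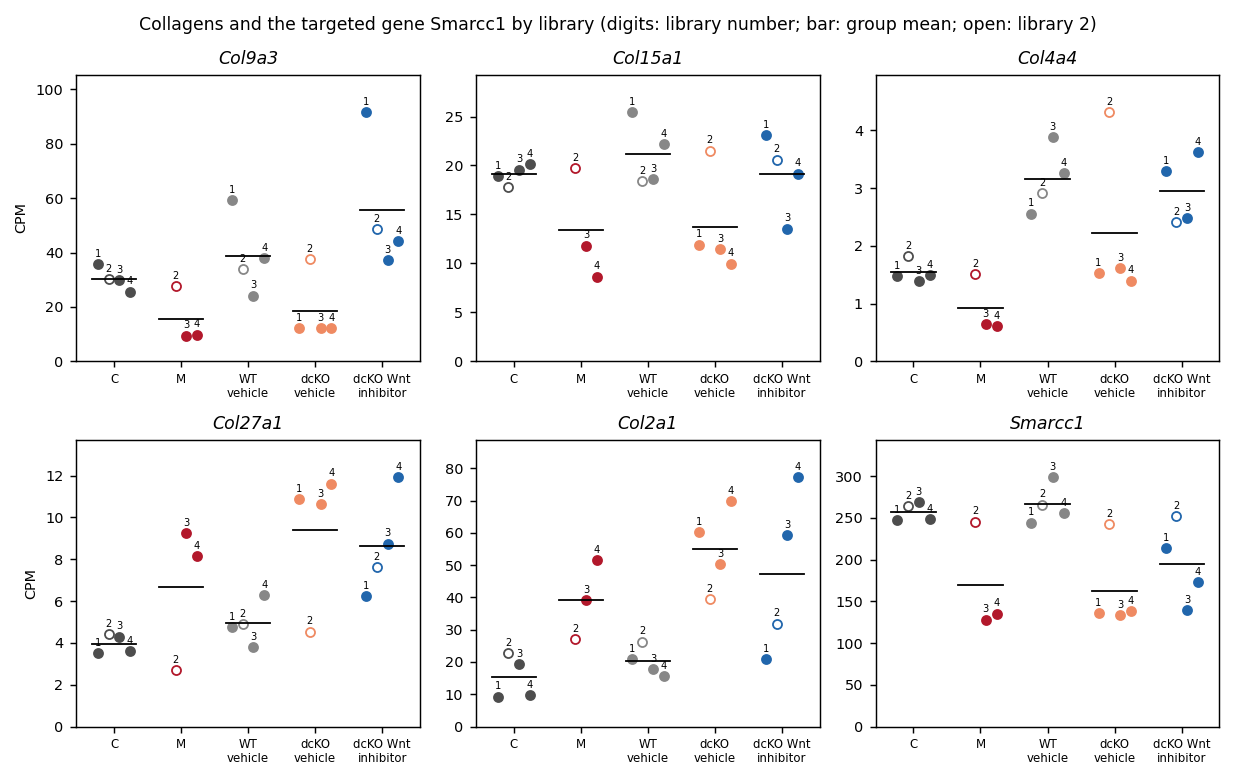
Col9a3, Col15a1, Col4a4, Col27a1, Col2a1 and Smarcc1 in CPM by library in the 5 RNA groups, each point 1 library, with library 2 of each group as an open symbol. The open symbols of M and dcKO vehicle lie at control level for Smarcc1, Col9a3 and Col15a1 and at or below it for Col27a1, and dcKO vehicle 2 lies above the WT libraries for Col4a4.

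Of the transmembrane collagens, Col23a1 (chr11:51289920-51583918) was 12.6, 12.6, 10.9 and 11.6 CPM in C and 10.8, 15.98 and 14.9 CPM in M. The second experiment gave 16.7, 12.2, 11.2 and 15.7 CPM in WT vehicle, 18.2, 10.8, 16.7 and 15.4 CPM in dcKO vehicle and 12.98, 12.8, 14.4 and 14.1 CPM in dcKO inhibitor. M 3 and 4 lay above all C pallia, M 2 did not, and it rose without M 2 (0.38 ± 0.10, adjusted p = 0.0379), against 0.24 ± 0.14, adjusted p = 0.438 with it. Col13a1, a collagen of the neuromuscular synapse, was 0.378, 0.709, 0.285 and 0.768 CPM in C and 0.252, 0.7196 and 0.687 CPM in M. It was 0.358, 0.717, 0.0827 and 1.16 CPM in WT vehicle, 0.541, 0.356, 0.567 and 0.5595 CPM in dcKO vehicle and 0.718, 0.574, 0.778 and 0.877 CPM in dcKO inhibitor after treatment. Its M values overlapped the C values. Col17a1 was below the filter, and Col25a1, a collagen of neurons, ranged from 4.36 to 22.6 CPM with M 2 and dcKO vehicle 2 as the lowest libraries. Col26a1 was 11.9, 15.9, 8.18 and 11.97 CPM in C and 8.898, 9.51 and 7.96 CPM in M. In the treated groups it was 18.8, 16.2, 7.86 and 16.8 CPM in WT vehicle, 11.9, 9.93, 12.6 and 8.44 CPM in dcKO vehicle and 19.4, 15.2, 10.01 and 20.8 CPM in dcKO inhibitor. It was not called. Col7a1, the anchoring fibril collagen, ranged from 3.02 to 9.15 CPM and Col28a1 from 0.606 to 2.25 CPM. Every inhibitor value of Col7a1 exceeded every vehicle value (0.57 ± 0.20, unadjusted p = 0.0143, adjusted p = 0.229 against dcKO vehicle).

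The enzymes, receptors and partners of collagens were read as whole lists. With all libraries and the filter on low counts, no gene of these lists passed an adjusted p under 0.05 by edgeR in M against C or dcKO vehicle against WT vehicle. Without the filter, Lamb1, Lama2 and Itga1 were lower and Adamts2 higher in M against C (adjusted p from 0.0423 to 0.0467), beside 0.253% and 0.338% of all genes. With an unadjusted p below 0.05, the numbers higher and lower in M than in C were 1 and 4 of 19 biosynthesis enzymes, 2 and 2 of 12 processing and crosslinking enzymes, 1 and 2 of 9 receptors, 1 and 3 of 9 degradation genes and 1 and 6 of 11 basement membrane partners, beside 7.91% and 8.14% of all genes. DESeq2 with a prior called 0 and 0 biosynthesis enzymes, 2 and 1 processing and crosslinking enzymes, 0 and 2 receptors, 1 and 1 degradation genes and 1 and 3 basement membrane partners higher and lower, beside 1.77% and 2.08%. Without M 2, where 5.57% of all genes were higher and 6.88% lower, the basement membrane partners had 1 gene higher of 11, the laminin chain Lamb2 (1.07 ± 0.10, adjusted p = 0.000128), and 3 lower, Lama5 (-1.81 ± 0.19, adjusted p = 0.000238), Lamb1 (-0.71 ± 0.073, adjusted p = 0.000201) and Lama2 (-0.88 ± 0.13, adjusted p = 0.00177). The same 4 genes were called, in the same directions, in dcKO vehicle against WT vehicle without dcKO vehicle 2, an experiment that is not independent of the first, with Lama5 at -1.81 ± 0.28, adjusted p = 0.00557. The list median was -0.35 without M 2, against -0.0004 for all genes. Also without M 2, of 9 receptors the fibrillar collagen receptor Ddr2 (-1.83 ± 0.16, adjusted p = 8.74e-05) and the integrin Itga1 (-0.60 ± 0.13, adjusted p = 0.0121) fell and Ddr1 rose (0.41 ± 0.11, adjusted p = 0.0347). Of 12 processing and crosslinking enzymes, Lox, which crosslinks fibrils (2.66 ± 0.49, adjusted p = 0.00989), and Adamts2 rose, and Loxl3, Adamts3 and Adamts14 fell. Of 9 degradation genes, Mrc2, the receptor that takes up cleaved collagen (1.23 ± 0.11, adjusted p = 9.35e-05), rose, and the inhibitors Timp3 (-0.96 ± 0.16, adjusted p = 0.00408) and Timp2 fell. Of 19 biosynthesis enzymes, the prolyl hydroxylases P4ha2 (-0.92 ± 0.16, adjusted p = 0.00402) and P4ha3 fell and Tmem38b rose, whereas Serpinh1, the collagen chaperone, differed by 0.0055 ± 0.0883, adjusted p = 0.985 with all libraries.

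Markers of the cell types in the tissue were called in the same setting. Without M 2, the meningeal marker Twist1 rose (2.59 ± 0.32, adjusted p = 0.000619) and Ogn fell (-0.99 ± 0.27, adjusted p = 0.0374) of 11 tested, the endothelial Flt1 fell (-0.56 ± 0.11, adjusted p = 0.00747) of 9, and the pericyte receptor Notch3 rose (0.66 ± 0.0719, adjusted p = 0.000274) of 8. Of 6 neuron markers, 4 fell, Neurod6 (-1.24 ± 0.14, adjusted p = 0.000619), Rbfox3 (-0.53 ± 0.074, adjusted p = 0.00124), Stmn2 (-0.40 ± 0.0738, adjusted p = 0.00592) and Dcx (-0.29 ± 0.0655, adjusted p = 0.0165). The choroid plexus marker Ecrg4 (2.49 ± 0.32, adjusted p = 0.00178, of 11) and the microglial C1qb (0.45 ± 0.13, adjusted p = 0.0483, of 8) rose, and no erythroid marker of 7 was called. In all, 29 genes of the lists that are no collagens were called without M 2, beside 5.57% of all genes called higher and 6.88% lower. The count pools lists that were chosen with earlier results of these data known. With M 2, 28 of them were tested, with fold changes of the same sign and adjusted p from 0.101 to 0.822, among them Lama5 at -1.04 ± 0.45, Ddr2 at -1.19 ± 0.38, Lox at 2.29 ± 0.65, Mrc2 at 1.01 ± 0.20 and Neurod6 at -0.50 ± 0.42. Twist1 did not pass the filter there. The fits with and without M 2 share all other libraries, so the kept signs are no separate support. With all libraries, fold changes in M against C were below 0 for 9 of 9 meningeal, 6 of 8 pericyte and 5 of 8 choroid plexus markers tested. The medians of these lists were -0.91, -0.12 and -0.42, and 4 of 8 microglial markers were below 0. The single markers named as rising therefore do not stand for their lists. In dcKO vehicle against WT vehicle without dcKO vehicle 2, Ecrg4 rose (2.40 ± 0.34, adjusted p = 0.004303) and Flt1 (-0.53 ± 0.13, adjusted p = 0.0375) and Neurod6 (-1.31 ± 0.21, adjusted p = 0.006299) fell. The part of these markers in the collagen values was not tested.

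In inhibitor against WT vehicle without inhibitor 2, the basement membrane partners Nid1 (-0.54 ± 0.0928, adjusted p = 0.00888) and Lamc1 (-0.43 ± 0.0907, adjusted p = 0.01795) and the receptor Itga1 (-0.99 ± 0.21, adjusted p = 0.0177) fell, beside 5.35% of all genes. The endothelial Kdr (-0.44 ± 0.0988, adjusted p = 0.0225) fell too, and the meningeal Crabp2 (1.19 ± 0.32, adjusted p = 0.0401) and the haemoglobin gene Hbb-bs (0.65 ± 0.17, adjusted p = 0.0345) rose, beside 3.39%. With inhibitor 2 these had adjusted p of 0.0788 for Nid1, 0.109 for Lamc1, 0.209 for Itga1, 0.0856 for Kdr, 0.115 for Crabp2 and 0.0809 for Hbb-bs. Also called without inhibitor 2 were Ecrg4, Otx2, Sostdc1 and Calml4 as higher and Flt1, Timp2, Timp3 and Adamts3 as lower. With all libraries, 5 of 10 meningeal markers tested were above 0 and 5 below (median -0.026), so Crabp2 does not stand for its list. Of 9 endothelial markers 8 were below 0, and of 7 erythroid markers 7 were above 0.

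H3K27me3 was then read at the same genes, to ask whether the mark lay on collagen promoters and differed between K and C pallia. The 8 libraries held 18807173 to 45564947 tags, of which 12.3 to 66.5% were kept at 1 tag per position, and 6674 to 46000 peaks. Values are fold enrichment over the pooled input as the peak caller gave them. Library K 2 had peaks in 22 of the 76 collagen regions and K 4 in 63. At the start sites of collagens (within 2000 bp), K 2 had a peak at 4 genes, C 3 at 11, K 4 at 35 and the other libraries at 22 to 26.

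The mark lay at the start of most collagens. A region with a peak in at least 2 libraries lay at the start site of 30 of 44 collagens (68.2%), against 22.8% of 21938 protein-coding genes, and 21 (47.7%) had a start-site peak in at least 6 of 8 libraries, against 11.1%. The share was 75.0% for the 16 meningeal and vascular collagens and 64.3% for the 28 others. These are counts over genes, given without a test.

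Col1a1 and Col8a2 had a start-site peak in all 8 libraries. At Col1a1 the fold enrichment was 7.002, 4.68, 6.94 and 4.58 in C and 8.23, 8.68, 4.58 and 6.62 in K (pallia 1 to 4), within a region of 9842 bp, chr11:94930179-94940020, that covers the start of the gene. At Col8a2 it was 6.795, 5.44, 4.71 and 5.26 in C and 7.55, 5.35, 5.25 and 7.22 in K, in a region of 7520 bp, chr4:126284214-126291733. Neither separated K from C.

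Among the fibrillar genes, Col2a1 had 13.2, 4.63, 4.72 and 4.56 in C and 14.4, no peak, 4.81 and 7.41 in K, and its peaks were highest in C 1 and K 1. Col1a2 had 3.59, 3.64, 3.57 and 3.64 in C and 3.25, no peak, 3.61 and 5.24 in K. Col5a1 had 6.01, 3.96, no peak and 3.76 in C and 7.61, no peak, 4.43 and 7.03 in K. All of these lacked a peak in K 2, and Col5a1 also in C 3. At Col5a3, the third chain of collagen V, the values were 5.41, 3.34, 3.66 and 3.58 in C and 3.62, no peak, 4.54 and 4.68 in K. Col27a1 had 11.5, 4.17, no peak and 4.54 in C and 9.603, 3.68, 4.72 and 7.202 in K, in a region of 8260 bp, chr4:63210033-63218292, with the RNA of the gene higher in M without M 2. Col3a1, whose RNA ran with that of Col1a1 and Col1a2, had no H3K27me3 peak in any library at its start or in its body.

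The head-to-head pairs of collagen IV share their start-site peaks. Col4a1 and Col4a2, the most expressed collagens, had 6.91, 3.87, no peak and 3.58 in C and 10.4, no peak, 3.84 and 6.68 in K in a region of 5295 bp, chr8:11310033-11315327, around both start sites. Col4a3 and Col4a4 had 3.53, 3.4, no peak and 3.403 in C and 3.59, no peak, 3.84 and 6.47 in K. Col4a5 and Col4a6 had a peak in C 2 (3.74) and K 4 (5.38) alone. A tissue with several cell types can show both the mark and the RNA of a gene, and the data do not say in which cells either lay.

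Of the fibril-associated collagens, Col12a1 had 7.601, 5.03, 4.39 and 4.85 in C and 7.02, no peak, 5.23 and 8.202 in K. Col19a1 had 4.997, 4.21, 6.73 and 4.02 in C and 7.22, no peak, 4.15 and 8.58 in K. Both lacked a peak in K 2 alone. The other 2 marked genes of this class lacked peaks in C 3 and K 2, with 4.34, 5.296, no peak and 5.17 in C and 4.07, no peak, 5.31 and 7.496 in K for Col14a1. For Col9a2 the values were 6.697, 3.66, no peak and 3.72 in C and 5.43, no peak, 5.06 and 6.93 in K. Of the transmembrane collagens, Col13a1 had 12.2, 5.302, 4.43 and 5.09 in C and 10.4, no peak, 5.54 and 11.4 in K. At Col12a1 and Col13a1 the 3 highest values were those of C 1, K 1 and K 4. At Col23a1 the values were 11.4, 4.36, 4.53 and 4.76 in C and 9.96, no peak, 4.701 and 5.57 in K. For Col26a1 they were 8.56, 4.38, 5.72 and 4.76 in C and 5.23, no peak, 4.73 and 9.46 in K. K 2 again was the library without a peak. Both multiplexins lacked a peak in C 3 and K 2, with 12.5, 5.39, no peak and 4.99 in C and 12.5, no peak, 5.52 and 9.24 in K for Col15a1. At Col18a1 the values were 4.89, 4.24, no peak and 4.08 in C and 3.98, no peak, 5.15 and 9.02 in K. Col6a6 lacked a peak in C 4 and K 2, with 5.62, 3.25, 5.15 and no peak in C and 4.96, no peak, 3.66 and 5.47 in K. Start-site peaks in 1 to 5 libraries occurred at 14 genes, and 9 genes had none (Col3a1, Col6a4, Col9a1, Col10a1, Col11a1, Col20a1, Col22a1, Col25a1 and Col28a1).

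**Figure D5:**
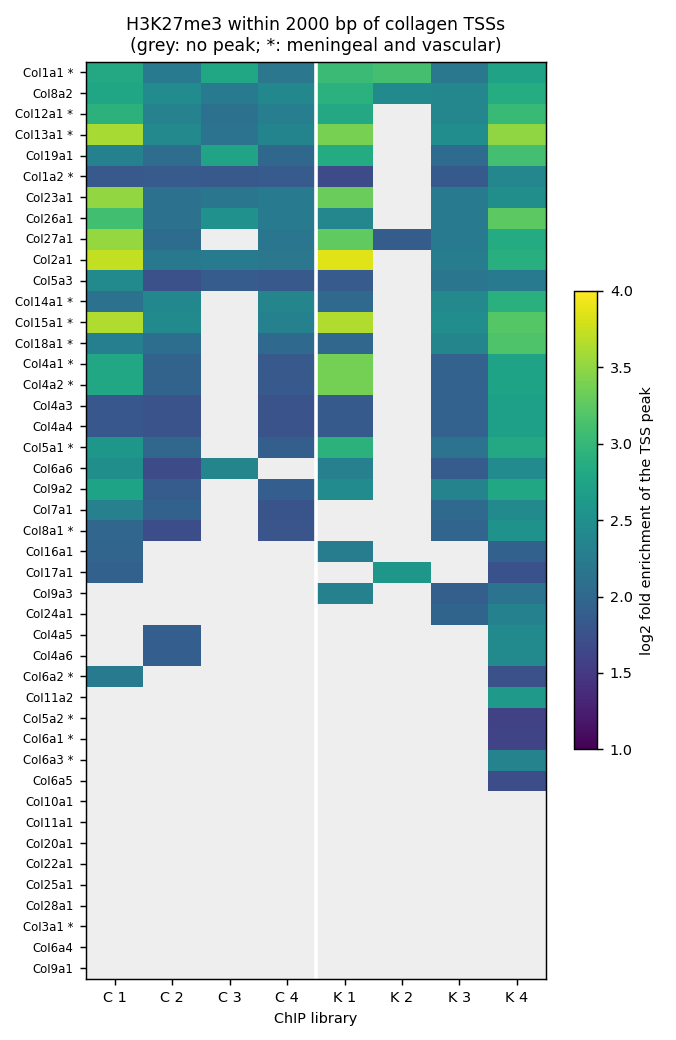
Heatmap of the start-site H3K27me3 peak (log2 fold enrichment over input) for the 44 collagens (rows) in the 8 libraries (columns, C 1 to 4 and K 1 to 4); empty cells have no peak. K 2 is nearly empty with 4 genes, and K 4 has a peak at 35 genes.

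Between K and C pallia, none of the 76 collagen regions passed limma's test, be it at an adjusted p under 0.05 or at an unadjusted limit of 0.01 or 0.05. Of all 22220 regions, 0% passed the adjusted limit, 0.009% were higher and 0% lower at the unadjusted limit of 0.01, and at that of 0.05 the shares were 0.198% and 0.0225%. Adding the replicate number to the fit as a block brought 2 collagen regions (2.63%) below an unadjusted 0.05, beside 1.05% of all regions. The mean was higher in K at 49 of 76 regions (64.5%), beside 59.8% of all regions, and after centring on library medians at 41 (53.9%), beside 48.9%. The median difference (K minus C) was 0.11 on the log2 scale, against 0.0469 for all regions. The median ran from -0.11 to 0.27 when single libraries were left out, being negative without C 2, C 3 or C 4. Where over 30% of a library's tags were kept (C 2, C 4, K 3, K 4), the collagen regions had a mean log2 fold enrichment of 1.34 in K and 0.83 in C, and in the other libraries it was 1.06 in K and 1.29 in C. Within the first set K 4, with 32.8% of its tags kept and 46000 peaks, stood at 1.896 and K 3 at 0.787, against 0.959 in C 2 and 0.697 in C 4. The region with the smallest p was that at the start of Col9a3 (chr2:180596994-180601610), chosen after its values were seen, with no peak in any C pallium and 4.99, no peak, 3.75 and 4.42 in K. Its difference was 1.59 ± 0.85 (SE, log2), with an unadjusted p = 0.0621 and an adjusted p = 1 by limma. The RNA of Col9a3 was lower in M without M 2, as given above.

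Promoters were then grouped by CpG content. Among members with a RefSeq promoter (the one with most CpGs where a gene had several), a start-site region was found at 3 of 11 with 0 to 5 CpGs in the 250 upstream bases (27.3%), 12 of 15 with 6 to 15 CpGs (80.0%) and 8 of 9 with 16 or more (88.9%). Among all protein-coding genes the shares were 11.6%, 29.6% and 26.4%. The median CpG number was 15 for members with start-site peaks in at least 6 libraries, 7.5 for 1 to 5 libraries and 3 for none. Col3a1, printed above, has no CpG in this window. Of short motifs searched on both strands in the same 250 bases, GGGCGG, the GC box, occurred in 21 of 35 collagen promoters (60.0%) and 32.7% of all 32851 promoters. For collagens only the promoter with most CpGs per gene was searched, whereas the 32851 include every promoter entry. The motif shares therefore compare unlike sets, which matters most for GGGCGG. This motif contains a CpG, which is counted among those above, and none of the motifs overlaps another in sequence. CCAAT occurred in 34.3% of collagen promoters and 33.8% of all, and TATAAA in 14.3% and 12.4%. Of the printed sequences, Col4a2, Col8a2, Col27a1 and Col1a2 hold GGGCGG, Col4a1, Col4a2 and Col1a2 hold CCAAT and Col3a1 holds TATAAA. In C pallia, the median level was 1.20 CPM per kb for the 21 members with start-site peaks in at least 6 libraries, 0.587 for the 14 with 1 to 5 and 0.334 for the 9 with none. These levels came from other samples than the H3K27me3 libraries and are given as a description.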

How the data were processed

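Gene counts were deposited by the authors, who aligned reads to mm10 with STAR, filtered on mapping quality and counted reads per gene with featureCounts, unstranded kit, raw counts without normalization; the annotation is not given in the sources used here. For H3K27me3, the authors called broad peaks per library with MACS 2.1.0.20140616 against the pooled input of the same letter at a q-value limit of 0.1 and deposited, per peak, the pileup signal, the fold enrichment ratio and -log10 p-values and q-values.

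Gene IDs matched a symbol for 36602 of 38355 (untreated) and 48349 of 48709 IDs (treated), in GENCODE M21 on GRCm38, the build of mm10. Counts were filtered with filterByExpr, scaled by TMM and tested with edgeR 4.0.16 (R 4.3.3; robust quasi-likelihood test, Benjamini-Hochberg adjusted p under 0.05), the 7 untreated libraries alone and the 12 treated together. Peaks were merged at 1 bp overlap into regions, of which those found in 2 or more libraries were kept, and log2 fold enrichment, with 1 where a library had no peak, was tested with limma 3.58.1. A region belonged to a gene whose body or 2000 bp around the start it touched. Tables were joined with pandas 2.3.3. In simulated counts in which 200 genes were given a log2 fold change of 1, 150 were recovered of 15568 genes tested in M against C, with 8 false calls, and 142 of 16204 in dcKO vehicle against WT vehicle, with 5.

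Alternatives were DESeq2 1.42.0, its size factors, no filter, the replicate block, the 2 groups alone, the pileup, other peak limits and each library left out; leaving out several libraries at once was chosen after seeing the data. The collagens, lists and rules were chosen with earlier results of these data known. Per library values are given for members called by the main edgeR fit in any full RNA comparison, of which there were none. They are also given for meningeal and vascular members that passed the filter, members with start-site peaks in at least 6 of 8 libraries and the collagen IV pairs. Calls by DESeq2 or with libraries left out did not count for this rule. Other members are given by range, and Col9a3, Col11a1, Col16a1 and Col22a1 were added after their values were seen. Of genes in other lists, the rule (at most 5 a list with an adjusted p under 0.05 in a full comparison) named Otx2, and the others were chosen after their values were seen. Same-numbered libraries of the compared RNA groups did not deviate together in every pair, so no pairing was used.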

Additional observations from a re-analysis of the deposited data

Results flagged for a closer look

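The spread of every collagen was checked within each RNA group of 4 libraries, by the gap of the highest or lowest library to its nearest neighbour over the whole range. Of 168 such checks, 13 passed Dixon's critical value for 4 samples (7.74%), where chance flags about 5%.

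Of the 13, 7 lay in the library labelled dcKO vehicle 2, which held Smarcc1 at control level. It was the highest of its group for Col9a3 (37.7 CPM, nearest 12.3), Col4a4 (4.32, nearest 1.61), Col11a1 (41.1, nearest 30.4) and Col15a1 (21.5, nearest 11.9). It was the lowest for Col27a1 (4.54, nearest 10.6), Col4a5 (18.1, nearest 25.8) and Col13a1 (0.356, nearest 0.541). Without it, Col9a3, Col4a4, Col15a1 and Col27a1 were called between dcKO vehicle and WT vehicle.

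The other 6 were spread over 5 libraries. WT vehicle 4 was highest for Col8a1 (2.13 CPM, nearest 0.972) and lowest for Col22a1 (11.4, nearest 18.4). WT vehicle 1 was highest for Col28a1 (2.25, nearest 1.40), C 1 was lowest for Col9a1 (1.39, nearest 1.60), inhibitor 3 was lowest for Col5a1 (11.9, nearest 14.3), and inhibitor 1 was highest for Col7a1 (9.15, nearest 7.05).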

How the results depend on the processing

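The 14 fold changes (10 genes) followed here were picked for an unadjusted p under 0.01 in the full edgeR fit. All 199 settings kept their direction, 172 stayed on the same side of the threshold and 27 passed it where the full fit did not. The settings share most libraries, so a kept direction was likely. No collagen was called in the full fit, so no call could be lost. These counts are therefore no support for the changes. DESeq2 with a prior called 3 collagens (M against C), 1 (dcKO vehicle against WT vehicle), 2 (inhibitor against dcKO vehicle) and 4 (inhibitor against WT vehicle), against 0 in each by edgeR, with 5, 4 and 8 collagens at an unadjusted p under 0.01 in the first 3 comparisons (beside 3.27% of all genes higher and 3.77% lower, 2.08% and 1.96%, and 3.22% and 3.46%) and medians of -0.12 (M against C) and 0.15 (inhibitor against dcKO vehicle). Its prior shrinks fold changes. With the replicate number as a block, 5 collagens (dcKO vehicle against WT vehicle; 2 higher beside 1.78% of all genes, 3 lower beside 2.26%) had an unadjusted p under 0.01, and 1, Col19a1, was called in inhibitor against WT vehicle, beside 0.763% of all genes; the block changed no other call of a collagen, and of the lists it added Timp3, Hbb-bs, Hba-a1 and Ecrg4 there and Ecrg4 in dcKO vehicle against WT vehicle. Same-numbered RNA libraries of compared groups correlated at -0.311 to -0.033 (untreated) and -0.176 to 0.403 (treated, highest for WT vehicle 1 with inhibitor 1, and 0.382 with dcKO vehicle 1), with means of -0.137 and 0.0929, against 0.0464 and -0.0285 for different numbers. With the 2 groups alone, 4 had an unadjusted p under 0.01 in dcKO vehicle against WT vehicle (3 higher beside 1.69%, 1 lower beside 1.7%). In inhibitor against dcKO vehicle, 6 collagens were called with library 2 of both left out (median 0.21) and 1 with inhibitor 1 left out too (median 0.19). Without inhibitor 1 and 3, 2 had an unadjusted p under 0.01, both higher, beside 0.89% of all genes. Without inhibitor 1 and 2, 3 were called against WT vehicle. Leaving out 1 library, called collagens ranged over 0 to 9 (M against C; 9 without M 2), 0 to 6 (dcKO vehicle against WT vehicle; 6 without dcKO vehicle 2), 0 to 3 (inhibitor against dcKO vehicle; 3 without dcKO vehicle 2) and 0 to 4 (inhibitor against WT vehicle; 4 without inhibitor 2), and counts at an unadjusted p under 0.01 over 0 to 10 (0 without M 4, 10 without M 2), 1 to 8 (8 without WT vehicle 3), 3 to 7 (7 without dcKO vehicle 2 or inhibitor 3) and 2 to 7 (2 without WT vehicle 4, 7 without WT vehicle 3). At this limit 6.58% of all genes were higher and 8.06% lower without M 2. Without WT vehicle 3 the shares were 1.63% and 2.02% against dcKO vehicle, and 3.49% and 3.98% against inhibitor. For inhibitor and WT vehicle without WT vehicle 4 they were 1.71% and 1.76%. The 7 collagens between inhibitor and dcKO vehicle were all higher, beside 3.98% without dcKO vehicle 2 and 1.78% without inhibitor 3. The medians ranged, in the same order of comparisons, from -0.41 to -0.26, -0.43 to -0.23, 0.28 to 0.46 and -0.081 to 0.063. H3K27me3 counts stayed at 0 and the median ranged from -0.11 to 0.27. With all libraries, limma placed 0% of all 22220 regions under the adjusted limit and 0.009% higher at an unadjusted p under 0.01. Counts of collagen regions could therefore hardly move, and they do not show that the mark was unchanged. The pairing of H3K27me3 libraries by number had correlations of 0.579, -0.244, -0.323 and 0.309. Apart from the leave-outs named, the cause of a moved value was not tested. Members under about 1 CPM rest on few counts, which limits what could be detected for them.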
